A study of Arabidopsis thaliana with 12 samples.

Results

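The effect of ceria on Arabidopsis thaliana germinants was set against the effect of titania, gene by gene. The measure is a difference of differences: the mean of the CeO2 arrays minus the mean of their water controls, less the mean of the TiO2 arrays minus the mean of their KCl controls. It uses all 12 arrays of the series and all 22746 probe sets, which stand for 13333 named genes and for probe sets with no single gene. Each probe set was then placed by its direction: changed alike under both particles, opposed, or changed under 1 particle alone.

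The germinants were whole 12-day-old seedlings of the Columbia-0 ecotype, raised from seed in dishes with liquid. In one set, 3 arrays held germinants given 500 mg/L TiO2 particles and 3 held controls on 0.1 mM KCl. In the other, 3 arrays held germinants given 500 mg/L CeO2 particles and 3 held controls on sterilized purified water. No mutant or transgene was used. The labels call the arrays of the KCl and TiO2 groups biological replicates and those of the water and CeO2 groups replicates, with no word on separate dishes, so the p-values measure the spread between these samples, which may be technical. The labels also do not say in which liquid the particles were suspended. Particle, control liquid and array set go together here and cannot be told apart: a difference of effects is one between 2 such experiments.

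Ceria and titania are metal oxides of low solubility, used as nanoparticles in polishing agents, catalysts, pigments and sunscreens. In a seedling the first tissue they meet is the root surface, where root hairs extend by loosening a wall of xyloglucan, pectin and extensins. Walls also carry proteins that plants deploy against microbes: chitinases, osmotins, lectins, class III peroxidases, which form or use hydrogen peroxide, and berberine bridge enzyme-like oxidases, which oxidise sugars and defence metabolites. Germinating seedlings meanwhile lose the transcripts of late seed maturation, such as those of storage proteins, oleosins and late embryogenesis abundant (LEA) proteins.

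Values are log2 signals normalized by robust multi-array average (RMA), and errors after a difference are standard errors (SE). Array medians were 5.69 to 5.74 in KCl and TiO2 and 5.88 to 5.92 in water and CeO2, and the highest value of an array was 14.52 to 14.6 and 14.07 to 14.16. The sources used here do not state whether the sets were normalized together, so a level set across them may carry a separate normalization. The lowest values were 2.3 to 2.51, and a group mean below 4 is treated as near the floor, where a fold is a lower bound. The first principal component split the array sets, at 24.6 to 43.5 in KCl and TiO2 and −40.0 to −28.6 in water and CeO2. Arrays of different sets had correlations of 0.967 to 0.983, and those of a particle with its control 0.988 to 0.995. KCl replicate 3 and CeO2 replicate 3 stood apart from their groups on that component, at 24.6 and −28.6. Markers fixed for root hairs (6 measured), the photosystems (8) and the dry seed (13) had summed levels far above the floor in every group, though the dimmest seed marker had group means of 3.12 to 3.19. The summed log2 level of the root hair markers was 12.5 to 12.6 in KCl, 12.3 to 12.5 in TiO2, 11.4 to 11.7 in water and 12.6 to 12.8 in CeO2. That of the photosystem markers was 15.8 to 16.0, 15.7 to 15.8, 15.6 to 15.7 and 15.6 to 15.7 in the same order. The seed markers gave 10.7 to 11.5, 9.29 to 10.3, 10.8 to 11.3 and 10.9 to 11.3. In whole seedlings, fewer cells of a type and less RNA per cell cannot be told apart, and the part of either in the results was not tested.

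CeO2 changed 550 probe sets at an adjusted p of 0.05, 286 higher (1.26% of all) and 264 lower (1.16%). TiO2 changed 2407, of which 1073 were higher (4.72%) and 1334 lower (5.86%). The difference of effects itself passed the threshold in 1833 probe sets, 1056 more positive under CeO2 (4.64%) and 777 more negative (3.42%). Both particles changed 193 probe sets, which is 35.1% of the CeO2 calls and 8.02% of the TiO2 calls. Of these, 103 moved alike and 90 moved in opposite directions. This balance shifted with the array left out. Without water replicate 1 the classes changed alike held 32 higher and 44 lower, against 36 opposed with CeO2 up and 11 with CeO2 down. Without water replicate 3 they held 33 and 49 against 38 and 12, and without CeO2 replicate 3 they held 31 and 40 against 31 and 16. Other fits kept or turned the balance: 42 and 60 against 83 and 25 without KCl replicate 3. Leaving out TiO2 replicate 2 gave 34 and 40 against 55 and 20. A call under 1 particle only does not show that the effects differed, and that was tested by the difference itself. Across all probe sets the effects had a Pearson correlation of −0.0687 and a Spearman correlation of −0.111. The 2 effects share no array, though all were fitted with 1 spread per probe set, and probe sets are not independent replicates.

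**Figure D1:**
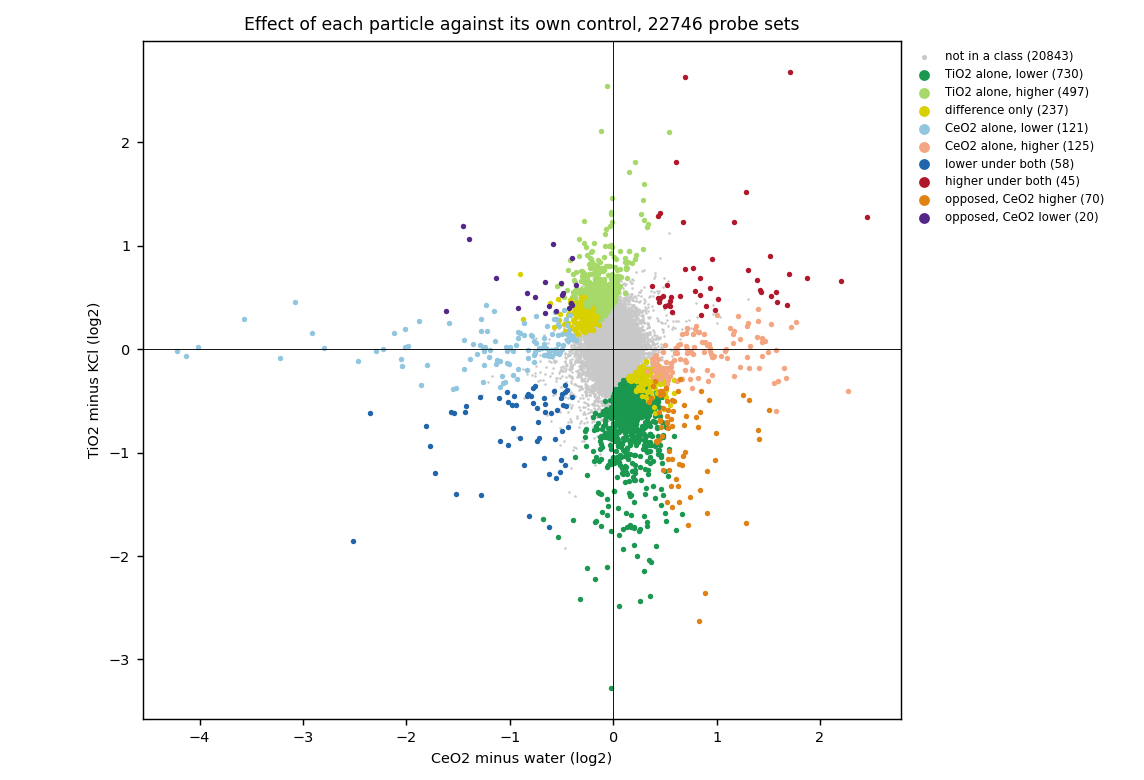
Each point is a probe set, with its CeO2 effect (log2) on the horizontal axis and its TiO2 effect (log2) on the vertical axis, coloured by class. The longest CeO2 effects, down to −4.21, lie along the horizontal axis with TiO2 effects near 0, and the upper right and lower left quadrants hold the 45 and 58 probe sets changed alike.

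The classes were of unequal size. Higher under both were 45 probe sets (0.198%) and lower under both 58 (0.255%). Higher under CeO2 and lower under TiO2 were 70 (0.308%), and the reverse 20 (0.0879%). A class of 1 particle alone asked for a call in that comparison, none in the other, and a call in the difference of effects. CeO2 alone raised 125 (0.55%) and lowered 121 (0.532%). TiO2 alone raised 497 (2.18%) and lowered 730 (3.21%). Another 237 (1.04%) passed in the difference but in neither comparison, while 111 CeO2 calls and 987 TiO2 calls could not be assigned, because the effect of the other particle neither passed nor differed from theirs. The opposed classes depended most on single arrays. The 70 became 36, 44 or 38 without water replicate 1, 2 or 3, 40 without CeO2 replicate 1 and 31 without CeO2 replicate 3, and the 20 became 13 without KCl replicate 1, 11 without water replicate 1 and 12 without water replicate 3. The 237 became 156 without water replicate 3.

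**Figure D2:**
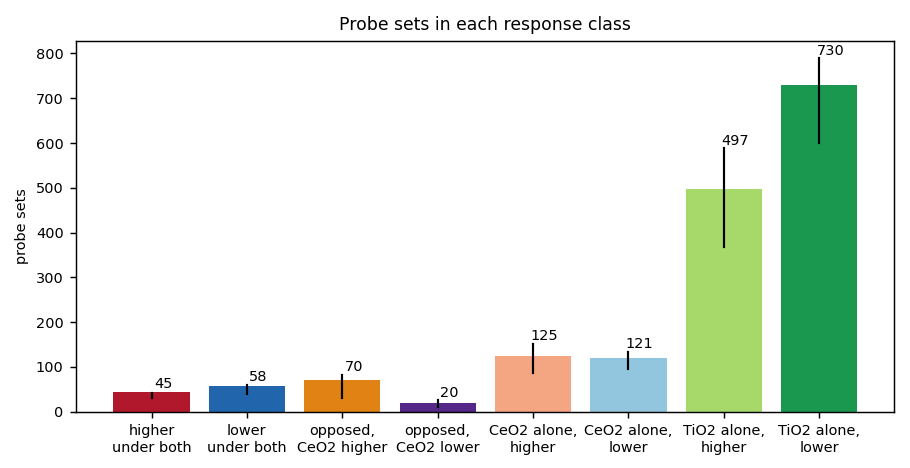
Bars give the number of probe sets in each of the 8 classes, and black lines span the lowest to highest count when each of the 12 arrays was left out in turn. TiO2 alone holds the tallest bars, 730 lower and 497 higher, and the opposed classes of 70 and 20 have the widest lines for their size.

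Of the genes higher under both particles, AT5G47980 encodes an acyltransferase of the thalianol triterpene gene cluster of roots. Its arrays read 6.72, 7.15 and 6.44 in KCl, 8.59, 8.39 and 7.91 in TiO2, 4.73, 4.92 and 4.72 in water and 6.03, 5.99 and 6.21 in CeO2. Every particle array lay above every array of its control. It rose by 1.52 ± 0.17 under TiO2 (adjusted p = 2.5e-05) and by 1.29 ± 0.17 under CeO2 (adjusted p = 0.00019), and the difference was −0.24 with a 95% interval from −0.75 to 0.27. AT3G45680 (NPF2.3), a nitrate transporter of the root stele, rose 1.72-fold under TiO2 and 1.61-fold under CeO2. The interval of its difference ran from −0.43 to 0.26. AT1G14960, of the major latex protein family, rose 1.70-fold and 2.48-fold (difference 0.54 ± 0.22, adjusted p = 0.17).

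The dirigent proteins, which guide the coupling of lignan and lignin precursors, gave 2 members of 13 measured to the class higher under both. The other 11 passed in no comparison. Over all 13333 genes, 21 were in that class. AT4G11190 read 8.48, 8.61 and 7.90 in KCl, 9.74, 9.42 and 9.67 in TiO2, 5.44, 5.57 and 5.57 in water and 8.28, 7.60 and 8.07 in CeO2. It rose 2.42-fold under TiO2 and 5.47-fold under CeO2, and the rises differed (1.18 ± 0.25 log2, adjusted p = 0.0066). Its neighbour on chromosome 4, AT4G11210, rose 1.72-fold and 1.71-fold, with an interval of the difference from −0.51 to 0.49. The CeO2 rise of AT4G11210 missed the threshold without water replicate 2 or 3 or CeO2 replicate 1 or 3, at adjusted p values of 0.0742, 0.0789, 0.0978 and 0.0701. AT1G34510 (PRX8), a class III peroxidase, rose 1.61-fold under TiO2 and 3.66-fold under CeO2, again by different amounts (1.18 ± 0.18 log2, adjusted p = 0.00057). SWEET16, a vacuolar sugar transporter, rose by 1.23 ± 0.14 under TiO2 and by 0.68 ± 0.14 under CeO2 from a water mean near the floor. Its CeO2 call was lost without water replicate 1, water replicate 2 or CeO2 replicate 1 (adjusted p = 0.0786, 0.0839 and 0.0735), and without CeO2 replicate 1 its effects differed (adjusted p = 0.020).

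The genes lowered by both particles included defence proteins of the wall and vacuole. AT2G43590, a chitinase family gene, read 7.34, 7.72 and 7.73 in KCl, 5.95, 5.46 and 5.82 in TiO2, 10.17, 10.20 and 10.22 in water and 7.99, 7.39 and 7.65 in CeO2. It fell 3.62-fold under TiO2 and 5.73-fold under CeO2, with no overlap in either comparison. The difference of −0.66 ± 0.21 missed the threshold (adjusted p = 0.073), and passed it without TiO2 replicate 2 or CeO2 replicate 1 (adjusted p = 0.030 and 0.024) and after quantile normalization (0.028). OSM34, an osmotin-like antifungal protein, fell 2.29-fold and 3.3-fold. AT1G02360, another chitinase family gene, read 7.82, 8.19 and 7.84 in KCl, 7.15, 7.23 and 7.24 in TiO2, 9.77, 9.99 and 10.02 in water and 8.10, 8.13 and 8.13 in CeO2. Both falls passed, and that under CeO2 was the greater by 1.07 ± 0.15 log2 (adjusted p = 0.00023). The class V chitinase ChiC fell 1.85-fold under TiO2 and 1.66-fold under CeO2, with an interval of the difference from −0.25 to 0.55. The berberine bridge enzyme-like oxidase AT1G30700 fell by 0.94 and 1.77 log2. Its fall under TiO2 missed the threshold when KCl replicate 2 (adjusted p = 0.0642) or TiO2 replicate 1 (adjusted p = 0.0554) was left out, and without the latter its effects differed (adjusted p = 0.0153).

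Outside defence, AT1G52200, of a family named for plant cadmium resistance, fell by 1.41 ± 0.14 under TiO2 and by 1.28 ± 0.14 under CeO2, and the interval of the difference ran from −0.29 to 0.56. AT5G40590, a C1-domain protein gene, fell 2.63-fold and 2.86-fold (interval −0.75 to 0.51). AT1G19020 fell by 0.62 under TiO2 and 1.54 under CeO2, which differed (−0.93 ± 0.19, adjusted p = 0.0054). In 43 of the 58 probe sets lower under both, the 3 water arrays were above the other 9, against 757 of all 22746. In 31 of the 45 higher under both they were below them, against 676 of all. The TiO2 arrays were below the other 9 in 45 of the 58, against 1370 of all. They were above the other 9 in 25 of the 45, against 1372 of all. These orders set levels across the array sets and carry whatever separate normalization they had. Both classes were chosen on the same values, so the counts describe them and test nothing.

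The leading opposed genes included those of wall and secreted proteins, higher under CeO2 and lower under TiO2. AT5G19890 (PRX59), a class III peroxidase, read 7.35, 7.34 and 7.57 in KCl and 4.97, 4.63 and 4.77 in TiO2. In the other set it read 7.20, 7.37 and 7.73 in water and 8.58, 7.99 and 8.24 in CeO2. The control groups overlapped and the particle groups lay on opposite sides of them. It fell 6.19-fold under TiO2 (adjusted p = 3e-08) and rose 1.78-fold under CeO2 (adjusted p = 0.0042), a difference of 3.46 ± 0.21 log2 (adjusted p = 7.2e-08). AT4G12500, a hybrid proline-rich protein of the lipid transfer family, read 6.05, 6.08 and 6.52 in KCl, 3.75, 3.9 and 3.94 in TiO2, 6.75, 6.89 and 7.0 in water and 8.19, 7.22 and 7.89 in CeO2. Under TiO2 it ended near the floor, at least 5.11-fold lower. Its difference of 3.24 ± 0.26 passed under every alternative tried for named genes, but its CeO2 rise (adjusted p = 0.014) was lost without water replicate 1 or 2 or CeO2 replicate 1 or 3, at adjusted p values of 0.0828, 0.0519, 0.0809 and 0.0857.

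Genes of pectin and hemicellulose metabolism were in the same class. AT1G65570, of the pectin-cutting polygalacturonase family, read 5.46, 5.63 and 5.92 in KCl, 4.87, 4.70 and 5.0 in TiO2, 5.48, 5.69 and 5.49 in water and 6.91, 6.40 and 6.35 in CeO2. It changed by −0.81 ± 0.15 and 1.0 ± 0.15, with no overlap on either side. AT3G18170, a glycosyltransferase of the family that decorates xylan, fell 1.68-fold under TiO2 and rose 1.76-fold under CeO2 (difference 1.57 ± 0.15, adjusted p = 5.7e-06). AT1G19960 changed by −1.36 and 0.84, and AT4G30670, one of the brighter genes at 11.34 ± 0.02 in KCl (SD, n = 3), by −0.99 and 0.69. AT1G19900, related to glyoxal oxidases, which release hydrogen peroxide in walls, changed by −1.18 and 0.91. Its CeO2 call was lost without water replicate 1 (adjusted p = 0.138), water replicate 3 (0.0971), CeO2 replicate 1 (0.102) or CeO2 replicate 3 (0.152).

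The reverse class held 8 probe sets of 1 gene, lower under CeO2 and higher under TiO2. AT1G26250, a proline-rich extensin-like protein gene, ranked first of the 8 by the smaller of its 2 effects, with no overlap in either comparison. It read 4.50, 4.55 and 4.18 in KCl, 5.28, 5.73 and 5.80 in TiO2, 6.80, 7.18 and 7.23 in water and 5.46, 5.58 and 5.82 in CeO2. The particle groups overlapped each other while the controls stood apart on either side, again across array sets. It rose 2.29-fold under TiO2 and fell 2.74-fold under CeO2 (difference −2.65 ± 0.22, adjusted p = 1.6e-06). AT3G03270, a universal stress protein gene induced by low oxygen, rose by 0.51 ± 0.11 and fell by 0.76 ± 0.11. The leucine-rich repeat receptor kinase gene AT5G59680 changed by 0.40 and −0.92. YLS5, a DJ-1 family gene named for its expression in yellowing leaves, fell 3.07-fold under CeO2, and rose 1.29-fold under TiO2 at an adjusted p of 0.034. The rise was lost without KCl replicate 1, 2 or 3 (adjusted p = 0.103, 0.0651 and 0.0573) or TiO2 replicate 3 (0.154). Of the 8 genes, only 3 kept this class in every alternative tried for named genes: AT1G26250, AT3G03270 and AT5G59680. AT2G17850, second of the 8, changed by 0.69 under TiO2 (adjusted p = 0.049) and −1.13 under CeO2, and left the class in 12 alternatives. AT4G07820, AT5G28630 and AT3G09405 each left it in 4.

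**Figure D3:**
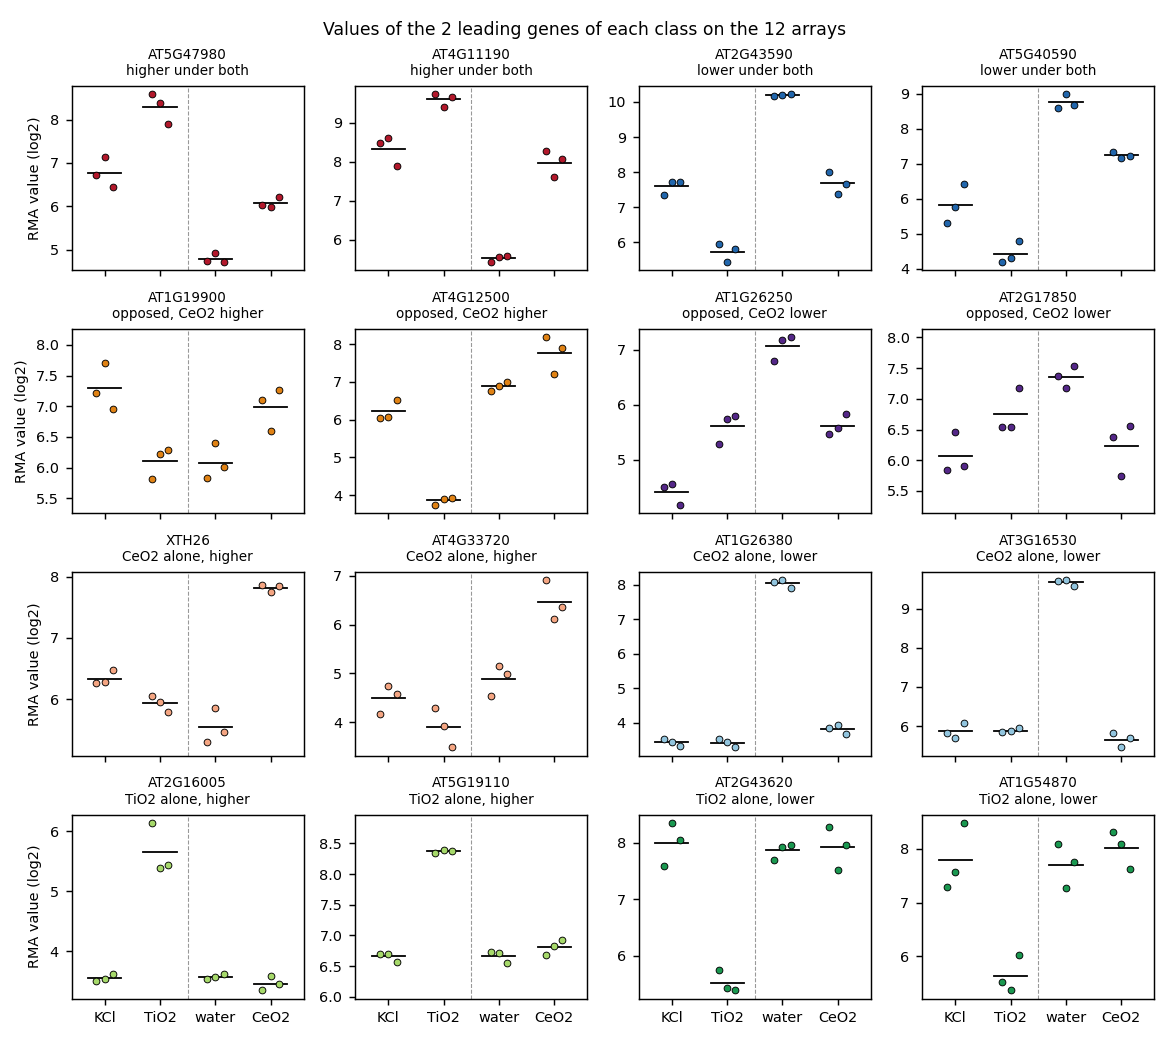
Values (RMA, log2) on the 12 arrays of the 2 leading genes of each class, one panel a gene, with points for arrays, bars for group means and a dashed line between the array sets. In AT1G26380 and AT3G16530 the 3 water arrays stand alone at 7.91 or above, and in AT2G43620 the 3 TiO2 arrays stand alone at 5.73 or below.

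The 4 largest effects of either particle, −3.57 to −4.21, were falls under CeO2 alone, and the named leaders of this class were mostly defence genes. AT1G26380 encodes a berberine bridge enzyme-like oxidase that makes a cyanogenic indole metabolite in the response to pathogens. It read 8.09, 8.14 and 7.91 in water and 3.86, 3.93 and 3.69 in CeO2, at least 18.6-fold lower (adjusted p = 4.8e-13). In the other set it read 3.55, 3.45 and 3.33 in KCl and 3.53, 3.46 and 3.29 in TiO2. Water was thus the one group in which this gene was above the floor. A fall under TiO2 could not have been seen from such a level. Its difference of effects was −4.20 ± 0.14 (adjusted p = 1.1e-10).

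AT3G16530, a legume-type lectin gene, was not at the floor. Its values were 9.71, 9.73 and 9.57 in water, 5.81, 5.46 and 5.70 in CeO2, 5.81, 5.71 and 6.08 in KCl and 5.85, 5.86 and 5.94 in TiO2. It fell 16.2-fold under CeO2, while the TiO2 effect was 0.02 ± 0.11 (difference −4.03, 95% interval −4.37 to −3.70, adjusted p = 3.5e-10). CHI, a chitinase gene, read 7.32, 7.34 and 7.47 in water, 5.39, 5.23 and 5.48 in CeO2, 4.88, 4.65 and 4.83 in KCl and 4.97, 4.81 and 5.16 in TiO2, and fell 4.02-fold. The peroxidase AT5G39580 (PRX62) fell 3.95-fold, from 9.53, 9.68 and 9.86 to 7.95, 7.46 and 7.72, and read between 5.90 and 6.57 in both groups of the other set. Each of these genes was highest in the 3 water arrays, with no overlap with the other 9.

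The same held for AT1G14550 (PRX5), which fell by 2.29 ± 0.08 to a mean of 4.56, from 6.85 in water, with KCl and TiO2 means of 3.85 and 3.84. AT5G42830, an acyltransferase gene of the HXXXD type, fell 4.11-fold under CeO2 (TiO2 effect −0.16 ± 0.09). CYP71B6, a cytochrome P450 of indole metabolism, fell 2.33-fold, from 9.43, 9.49 and 9.42 to 8.29, 8.19 and 8.2. WRKY53, a transcription factor of defence and senescence, fell by 0.74 ± 0.10 under CeO2, to near the floor, with a TiO2 effect of 0.32 ± 0.10 (adjusted p = 0.055). That effect passed with the arrays centred on their medians (adjusted p = 0.0453) and with a variance that follows intensity (0.0461), where the gene was opposed. AT1G36640 was at least 4.69-fold lower under CeO2 and near the floor in KCl and TiO2.

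For the class as a whole, 107 of the 121 probe sets had all 3 water arrays above the other 9 arrays. In 110, or 90.9%, the CeO2 and TiO2 means lay closer to each other than the water and KCl means did, against 47.3% of all probe sets. The KCl mean was below 4 in 39 of the 121. The class was chosen on the water and CeO2 values, so the counts describe it and test nothing, and they set levels across the array sets. Median levels of the class were 6.60 in water, 5.37 in CeO2, 5.09 in KCl and 5.06 in TiO2.

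Several named genes raised by CeO2 alone encode proteins of the root hair wall. XTH26, a xyloglucan endotransglucosylase that remodels the root hair wall, read 5.30, 5.86 and 5.48 in water and 7.86, 7.75 and 7.84 in CeO2, a 4.82-fold rise (adjusted p = 1e-08). In KCl it read 6.26, 6.28 and 6.47 and in TiO2 6.06, 5.96 and 5.80. The TiO2 arrays were the lower, by 0.40 ± 0.12, at an adjusted p of 0.051 that became 0.0347 without water replicate 1 and 0.0193 without water replicate 2, which places the gene among the opposed. The difference of 2.67 ± 0.18 passed in each of these fits. EXPA18, a root hair expansin, read 7.14, 7.41 and 7.37 in water, 8.63, 8.57 and 9.04 in CeO2, 8.39, 8.62 and 8.65 in KCl and 8.73, 8.53 and 8.61 in TiO2. Its CeO2 level reached those of the other set and its water level lay below them. GH9C1, an endoglucanase of the root hair wall, differed from that: it read 8.08, 8.34 and 7.94 in water, 9.35, 9.15 and 9.36 in CeO2, 7.70, 7.91 and 8.05 in KCl and 7.69, 8.08 and 8.07 in TiO2, so that the CeO2 arrays stood alone.

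All 6 measured members of the root hair list rose under CeO2, against 147 of 13333 genes. Their median was 1.21 against −0.0071 over all genes. Of the 6 members, 4 were in the class of CeO2 alone, against 67 of 13333 genes. HRGP1, an extensin, rose by 0.94 ± 0.12 (TiO2 effect −0.04). AT4G26010 (PRX44) rose 2.39-fold and fell 1.36-fold under TiO2, a fall lost without KCl replicate 2, TiO2 replicate 1 or TiO2 replicate 3 (adjusted p = 0.105, 0.0646 and 0.109). EXPA7, another root hair expansin, rose by 0.96 ± 0.13, and its difference of 0.62 ± 0.19 missed the threshold (adjusted p = 0.060). The list was chosen with earlier results of these data known. The summed level of the same markers was 11.4 to 11.7 in water, lowest of the 4 groups, and its part in the rises was not tested.

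Other wall and secreted proteins rose with them. AT5G04960, a pectin methylesterase gene, read 8.04, 8.16 and 8.04 in water, 9.26, 9.38 and 9.55 in CeO2, 8.86, 9.08 and 8.76 in KCl and 8.62, 8.79 and 8.74 in TiO2. It rose 2.49-fold (difference 1.5 ± 0.15, adjusted p = 8.6e-06). The peroxidases AT2G39040 (PRX24), AT3G49960 (PRX35) and AT1G30870 (PRX7) rose by 1.44, 1.23 and 1.04, with TiO2 effects of −0.06, −0.17 and −0.06. Of the 55 measured class III peroxidases, 9 rose and 6 fell under CeO2, against 147 and 127 of 13333 genes. TET12, a tetraspanin of the cell membrane, rose 2.66-fold (TiO2 effect −0.19 ± 0.13). AT5G04120, of the phosphoglycerate mutase family, rose 3.03-fold. Of 18 measured PR1-like CAP proteins, small secreted proteins related to the pathogenesis marker PR1, 3 rose under CeO2 alone, against 67 of 13333 genes. They were AT4G33720, up by 1.57, AT4G30320, up by 1.3, and its relative AT4G33730, up by 1.3. Among the 18, 12 passed in no comparison, 1 fell under CeO2 and 1 fell under TiO2 alone. Without TiO2 replicate 1 the TiO2 effect of AT4G33720, −0.60, passed too (adjusted p = 0.045). The zinc transporter gene ZIP9, induced by zinc shortage, rose by 0.91 ± 0.12 (TiO2 effect −0.20 ± 0.12, difference adjusted p = 0.00061).

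In 75 of the 125 probe sets raised by CeO2 alone the water arrays were below the other 9, against 676 of all 22746. In 61 the CeO2 arrays were above the other 9, against 626 of all. As the class was chosen on these values, the counts describe it and test nothing, and they set levels across the array sets. The TiO2 effect in this class had a median of −0.0871 and in the class lowered by CeO2 alone one of 0.0179.

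**Figure D4:**
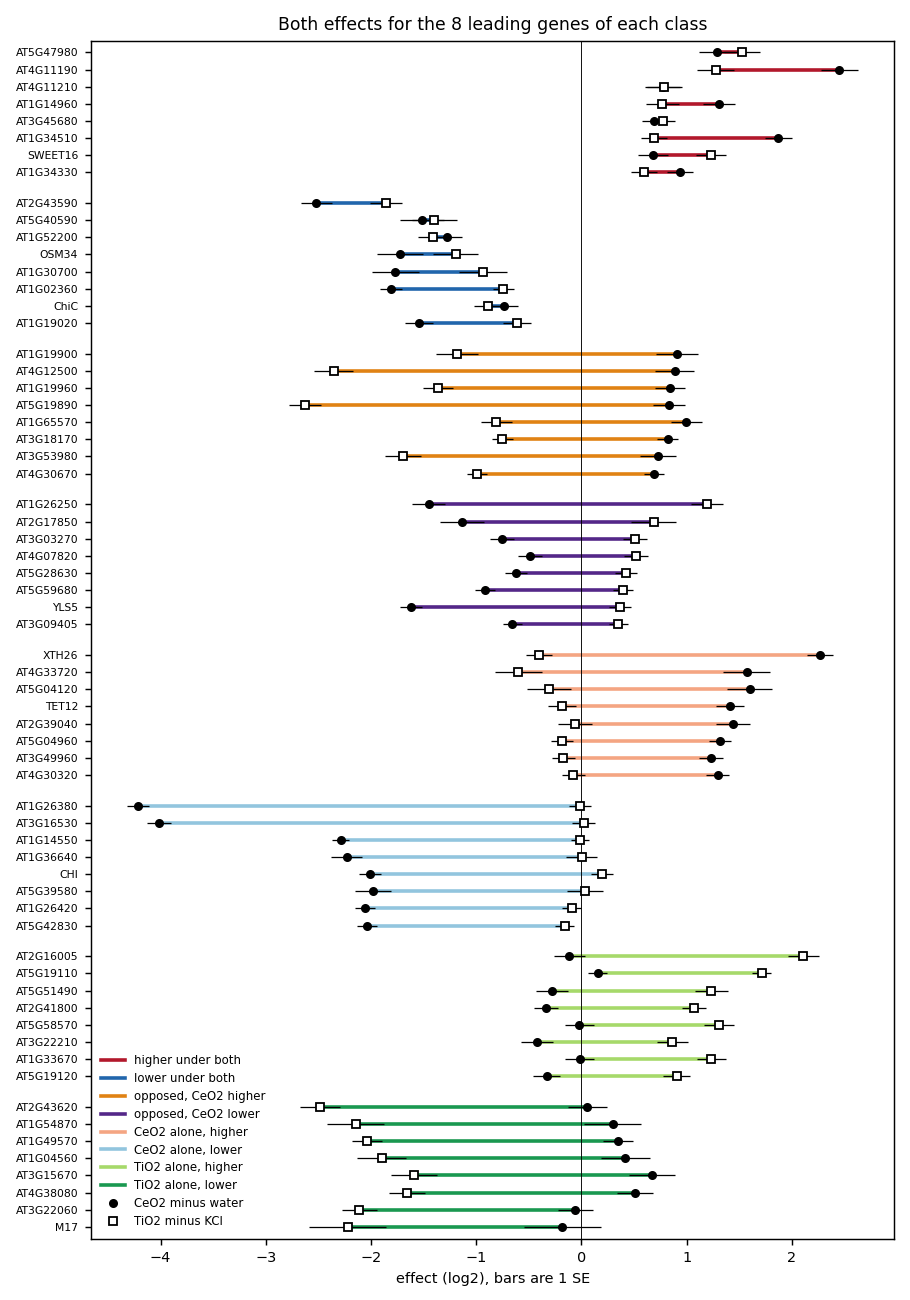
Effects (log2) of CeO2 (filled circles) and TiO2 (open squares) for the 8 leading genes of each class, with bars of 1 SE and a coloured line joining the 2 effects of a gene. The lines cross 0 in the opposed classes, and in the classes of 1 particle alone 1 of the 2 effects missed the threshold, such as −0.01 under TiO2 for AT1G26380 and 0.67 under CeO2 for AT3G15670.

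The falls under TiO2 alone were the largest class and held seed, peroxidase, secondary metabolism, nitrogen and jasmonate genes. AT2G43620, a chitinase family gene, read 7.59, 8.36 and 8.05 in KCl and 5.73, 5.43 and 5.38 in TiO2, a 5.60-fold fall (adjusted p = 6.1e-07). In the other set it read 7.70, 7.93 and 7.97 in water and 8.28, 7.53 and 7.96 in CeO2. The 9 arrays without TiO2 overlapped and the TiO2 arrays lay below them all. The peroxidase AT1G49570 (PRX10) fell 4.1-fold, from 7.68, 7.42 and 7.43 to 5.61, 5.27 and 5.55, with a CeO2 effect of 0.35 ± 0.14 (adjusted p = 0.39). AT3G22060, a secreted protein with the domain of cysteine-rich receptor kinases, fell 4.31-fold, and AT4G38080, of the hydroxyproline-rich glycoprotein family, 3.15-fold.

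Seed maturation gave 8 of its 13 measured members to this class, and 2 more fell under TiO2 with no call in the difference. Over all 13333 genes, 367 were in this class. The list had a median TiO2 effect of −1.24 and a median CeO2 effect of 0.059, against 0.023 and −0.0071 over all genes. AT1G54870, a short-chain dehydrogenase of the seed, read 7.30, 7.58 and 8.48 in KCl, 5.52, 5.37 and 6.03 in TiO2, 8.08, 7.28 and 7.76 in water and 8.31, 8.09 and 7.62 in CeO2. KCl replicate 3 was the highest of its group in this gene, and the groups of that set did not overlap. AT2G28490, a vicilin-like storage protein, fell 3.3-fold and AT3G01570, an oleosin of seed oil bodies, 3.00-fold. AT1G04560, of the AWPM-19 membrane protein family, fell 3.73-fold and was not on the list. AT3G15670 (LEA76) fell 3.01-fold under TiO2 and changed by 0.67 ± 0.22 under CeO2 (adjusted p = 0.18), which passed without KCl replicate 3 (adjusted p = 0.0304). M17, another LEA gene, fell by 2.22 ± 0.36, and its difference of 2.04 ± 0.51 (adjusted p = 0.020) was lost without TiO2 replicate 2, water replicate 3 or CeO2 replicate 1 (adjusted p = 0.0582, 0.0581 and 0.0525) and with a variance that follows intensity (0.131). The summed seed marker level was 9.29 to 10.3 in TiO2 and 10.7 or more in the other groups, and its part in these falls was not tested.

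Genes of secondary metabolism were among those lowered by TiO2 alone. UGT84A3, a glucosyltransferase of hydroxycinnamic acids, read 9.17, 9.06 and 9.08 in KCl, 8.06, 7.73 and 7.33 in TiO2, 8.88, 8.78 and 8.70 in water and 9.02, 9.26 and 9.00 in CeO2 (difference 1.71 ± 0.20, adjusted p = 4.8e-05). UGT72E1, which glucosylates lignin precursors, fell by 1.09 ± 0.11. Of 9 measured flavonoid and anthocyanin genes 6 fell under TiO2, against 671 of 13333 genes. The list medians were −0.36 under TiO2 and 0.054 under CeO2, against 0.023 and −0.0071 over all genes. Between the particles 3 of the 9 differed, each positively, against 529 of 13333 genes. One of the 3, CHIL, a chalcone isomerase-like protein, differed by 0.40, and of the 12 arrays left out singly this call was kept only without KCl replicate 1 or CeO2 replicate 3 (adjusted p up to 0.117). It was lost too after quantile normalization, centring, the filter on dim probe sets and with a variance that follows intensity (adjusted p = 0.0931, 0.06, 0.0514 and 0.0504). DFR, which makes leucoanthocyanidins, read 10.35, 10.39 and 10.35 in KCl, 9.68, 9.54 and 9.27 in TiO2, 9.81, 9.98 and 9.96 in water and 9.93, 9.93 and 9.85 in CeO2. AT4G14090 (UGT75C1), an anthocyanin glucosyltransferase, fell 2.12-fold (difference 1.14 ± 0.21, adjusted p = 0.0022). BCAT4, which starts methionine chain elongation for glucosinolates, fell by 0.99, with a CeO2 effect of 0.35 (difference adjusted p = 0.00033).

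Nutrient and hormone genes were in the class too. ASPGB1, an asparaginase that frees ammonium from asparagine, read 8.19, 8.2 and 8.07 in KCl, 6.73, 6.29 and 6.22 in TiO2, 7.40, 6.98 and 7.29 in water and 7.62, 7.5 and 7.32 in CeO2. It fell 3.34-fold under TiO2 (difference 2.00 ± 0.19, adjusted p = 7.5e-06). NRT2.5, a nitrate transporter of nitrogen-starved plants, fell 2.41-fold. These are 2 of the 3 measured nitrogen genes, against 367 of 13333 genes lowered by TiO2 alone. BHLH101, a regulator of the iron deficiency response, fell by 0.88 ± 0.11 (CeO2 effect 0.23, difference adjusted p = 0.00022). JRG21 and AT5G05600 (JOX2), jasmonate-induced oxygenases, fell 3.18-fold and 2.41-fold, 2 of 6 measured jasmonate genes, against 671 falls under TiO2 among 13333 genes. The jasmonate list had a median TiO2 effect of −0.065. WRKY22, a transcription factor of immune signalling, read 6.51, 6.58 and 6.64 in KCl, 5.37, 5.43 and 5.34 in TiO2, 6.33, 6.64 and 6.32 in water and 6.45, 6.55 and 6.54 in CeO2. Its TiO2 arrays lay below the 9 others, and its difference of 1.28 ± 0.13 had the opposite sign to the −1.06 ± 0.14 of WRKY53.

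Sugar export, light harvesting and stress genes added single members. The SWEET sucrose transporters SWEET13 and SWEET14 fell by 0.70 and 0.77 under TiO2 (differences 1.01 ± 0.15 and 0.83 ± 0.17), whereas SWEET16 of the same family rose under both particles. LHCB4.3, a minor antenna protein of photosystem II, fell 1.84-fold (difference 1.09 ± 0.16). AT5G09570 and NDB2, transcripts of mitochondrial stress, fell by 0.84 and 0.70. WES1, which conjugates auxin to amino acids, fell by 0.82. In 484 of the 730 probe sets lowered by TiO2 alone the TiO2 arrays were below the other 9, against 1370 of all 22746. That class was chosen on the TiO2 and KCl values, so the count describes it and tests nothing. The CeO2 effect in this class had a median of 0.166, and the demand for a called difference favours effects of opposite sign.

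The rises under TiO2 alone held 8 listed genes among 229 single genes, and the falls held 47 among 367. Of the genes in no class or call, 331 of 11824 were on a list. AT2G16005, a lipid-binding protein gene of the MD-2-related family active in roots, read 3.51, 3.53 and 3.61 in KCl, 6.14, 5.39 and 5.44 in TiO2, 3.53, 3.56 and 3.62 in water and 3.34, 3.58 and 3.45 in CeO2. It was near the floor in every group but TiO2, where it was at least 4.31-fold higher (difference −2.22 ± 0.21, adjusted p = 6.6e-06). AT5G19110, of an aspartyl protease-like family, read 6.70, 6.70 and 6.58 in KCl, 8.34, 8.4 and 8.38 in TiO2, 6.73, 6.71 and 6.54 in water and 6.68, 6.83 and 6.93 in CeO2, a 3.28-fold rise. Its neighbour AT5G19120, of the same family, rose 1.87-fold, but its water and CeO2 levels, 8.39 to 8.65 and 8.02 to 8.35, lay near the TiO2 level of 8.39 to 8.67.

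AT5G51490, a pectin methylesterase gene, rose 2.36-fold under TiO2 (CeO2 effect −0.28 ± 0.15, difference −1.51 ± 0.22), while AT5G04960 of the same family rose under CeO2 alone. AT2G41800, a wall protein of the DUF642 family, rose 2.1-fold (difference −1.40 ± 0.16). AT1G33670, a leucine-rich repeat protein gene, was at least 2.35-fold higher, from near the floor. COR15B, a chloroplast protein of cold acclimation, rose by 0.68 ± 0.10 with a CeO2 effect of 0.01 ± 0.10 (difference adjusted p = 0.0073). OTP81, an editing factor for chloroplast transcripts, rose 1.68-fold (difference −0.85 ± 0.17, adjusted p = 0.0051). Of 14 measured genes of its DYW class 4 rose under TiO2 and 3 had a called negative difference, against 540 and 377 of 13333 genes. The list medians were 0.22 under TiO2 and −0.031 under CeO2, against 0.023 and −0.0071 over all genes. The difference of CRR28 (−0.51, adjusted p = 0.045) was kept, of the 12 arrays left out singly, only without KCl replicate 3 or TiO2 replicate 3 (up to 0.117 otherwise), and was lost after quantile normalization (0.0591), centring (0.0525) and with a variance that follows intensity (0.0599). That of OTP84 (−0.48, adjusted p = 0.022) was lost without TiO2 replicate 2, water replicate 2 or 3, or CeO2 replicate 2 (adjusted p = 0.0565, 0.0558, 0.0513 and 0.055). In 292 of the 497 probe sets the TiO2 arrays were above the other 9, against 1372 of all. Here too the class was chosen on these values, and the count tests nothing.

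Some genes passed in the difference alone. Chlorophyll and haem synthesis gave 4 of its 9 measured members to this group, each with a negative difference. Over all 13333 genes, 130 were in this group and 377 had a called negative difference. The list median was −0.18 under CeO2 and 0.24 under TiO2, against −0.0071 and 0.023 over all genes. HEME2, a uroporphyrinogen decarboxylase, read 9.81, 9.83 and 9.72 in KCl, 9.97, 10.10 and 9.99 in TiO2, 9.80, 9.52 and 9.55 in water and 9.41, 9.34 and 9.27 in CeO2. Its effects of 0.24 and −0.28 each missed the threshold, and the difference of −0.52 ± 0.13 passed (adjusted p = 0.020), but not without TiO2 replicate 2, water replicate 1 or CeO2 replicate 3 (adjusted p = 0.0524, 0.054 and 0.0564). CHLI2, a magnesium chelatase subunit, had a difference of −0.65 ± 0.16 (adjusted p = 0.019), lost without water replicate 1 or CeO2 replicate 3 (adjusted p = 0.0501 and 0.0551). GSA1, which makes the tetrapyrrole precursor aminolevulinate, differed by −0.55 ± 0.12 and kept this call in every alternative tried for named genes. Its rise of 0.30 under TiO2 (adjusted p = 0.038) was lost without KCl replicate 1 or 3, TiO2 replicate 1 or 2 or water replicate 1 or 2, at adjusted p values of 0.133, 0.069, 0.101, 0.138, 0.05 and 0.0532. HEME1 (difference −0.49, adjusted p = 0.048) kept its call only without TiO2 replicate 3 or CeO2 replicate 2 of the 12 arrays left out singly, and HEMB1 (−0.45, adjusted p = 0.04) only without KCl replicate 3 or TiO2 replicate 3, with adjusted p values up to 0.131 and 0.111.

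GH3.3, which conjugates auxin to amino acids, read 6.81, 6.84 and 8.13 in KCl, 7.94, 8.08 and 7.95 in TiO2, 9.02, 8.90 and 9.01 in water and 8.2, 7.83 and 8.2 in CeO2. KCl replicate 3 lay with the TiO2 arrays, far from the other KCl arrays. The effects were 0.73 ± 0.24 under TiO2 and −0.90 ± 0.24 under CeO2, neither past the threshold, and the difference was −1.63 ± 0.34 (adjusted p = 0.0065). Without KCl replicate 3 both effects passed (adjusted p = 8.12e-06 and 2.97e-05) and the gene was opposed. Without KCl replicate 1 the CeO2 effect alone passed (adjusted p = 0.0421).

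Several families were split among the classes. Of 55 measured class III peroxidases, 5 fell under TiO2 alone, 3 fell and 4 rose under CeO2 alone, 4 were opposed, 1 rose and 2 fell under both, 1 passed in the difference alone, 2 could not be assigned and 33 passed in no comparison. The 4 opposed members, AT4G26010 (PRX44), AT5G17820 (PRX57), AT5G19890 (PRX59) and AT5G47000 (PRX65), were each higher under CeO2 and lower under TiO2, with differences of 1.70, 1.23, 3.46 and 1.45. Over the family the median difference was 0.11, against −0.033 over all genes, and 15 members differed positively and 3 negatively, against 529 and 377 of 13333 genes. The 3 were AT1G14550 (PRX5), AT5G39580 (PRX62) and AT5G19880 (PRX58).

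The chitinase genes that lie side by side on chromosome 2 took different classes. Among the 5 measured, CHI fell under CeO2 alone, AT2G43590 under both, and AT2G43610 and AT2G43620 under TiO2 alone. The fifth, AT2G43580, changed by −0.71 under CeO2 and −0.29 under TiO2 and could not be assigned. AT2G43610 read 8.70, 8.81 and 9.15 in KCl, 8.12, 8.24 and 8.17 in TiO2, 9.36, 9.37 and 9.32 in water and 9.30, 9.24 and 9.07 in CeO2. From CHI to AT2G43620 the difference of effects ran from −2.20 to 2.54. Berberine bridge enzyme-like genes also lie side by side on chromosome 1. Of these, AT1G26380, AT1G26390, AT1G26410 and AT1G26420 fell under CeO2 alone, by 4.21, 0.92, 1.36 and 2.05. The KCl and TiO2 means of all 4 were near the floor, where a fall under TiO2 could not have been seen. AT1G26400 between them was near the floor in every group, water included at 3.17. The shared class of the 4 genes therefore cannot be set against the different classes of the chitinases. Such neighbours are alike in sequence, and how far their probe sets cross-hybridise is not known here.

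The defence proteins as a list, 19 measured, had 10 falls under CeO2 and 6 under TiO2, 3 of them in common. Over all 13333 genes there were 127 and 671 falls. The list median was −0.73 under CeO2 and −0.21 under TiO2, against −0.0071 and 0.023 over all genes. Subtilases, which cut secreted proteins, were split too, among 8 measured and named by symbol. ATSBT5.2 was opposed (0.57 under CeO2, −0.74 under TiO2), SBT3.5 fell by 1.03 and 0.41, and SBT4.12 rose by 0.37 and 0.61. All 3 classes depended on single arrays. The CeO2 call of ATSBT5.2 was lost without water replicate 1 or 2 or CeO2 replicate 1 or 3 (adjusted p = 0.0971, 0.0561, 0.0973 and 0.0778). The TiO2 call of SBT3.5 was lost without KCl replicate 2 or TiO2 replicate 1 (adjusted p = 0.124 and 0.116), and the CeO2 call of SBT4.12 without water replicate 1 or 3 or CeO2 replicate 2 or 3 (adjusted p = 0.115, 0.0698, 0.0706 and 0.129). The hybrid proline-rich protein AT4G12490 fell under TiO2 alone (−1.02 ± 0.15), near AT4G12500, which was opposed.

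**Figure D5:**
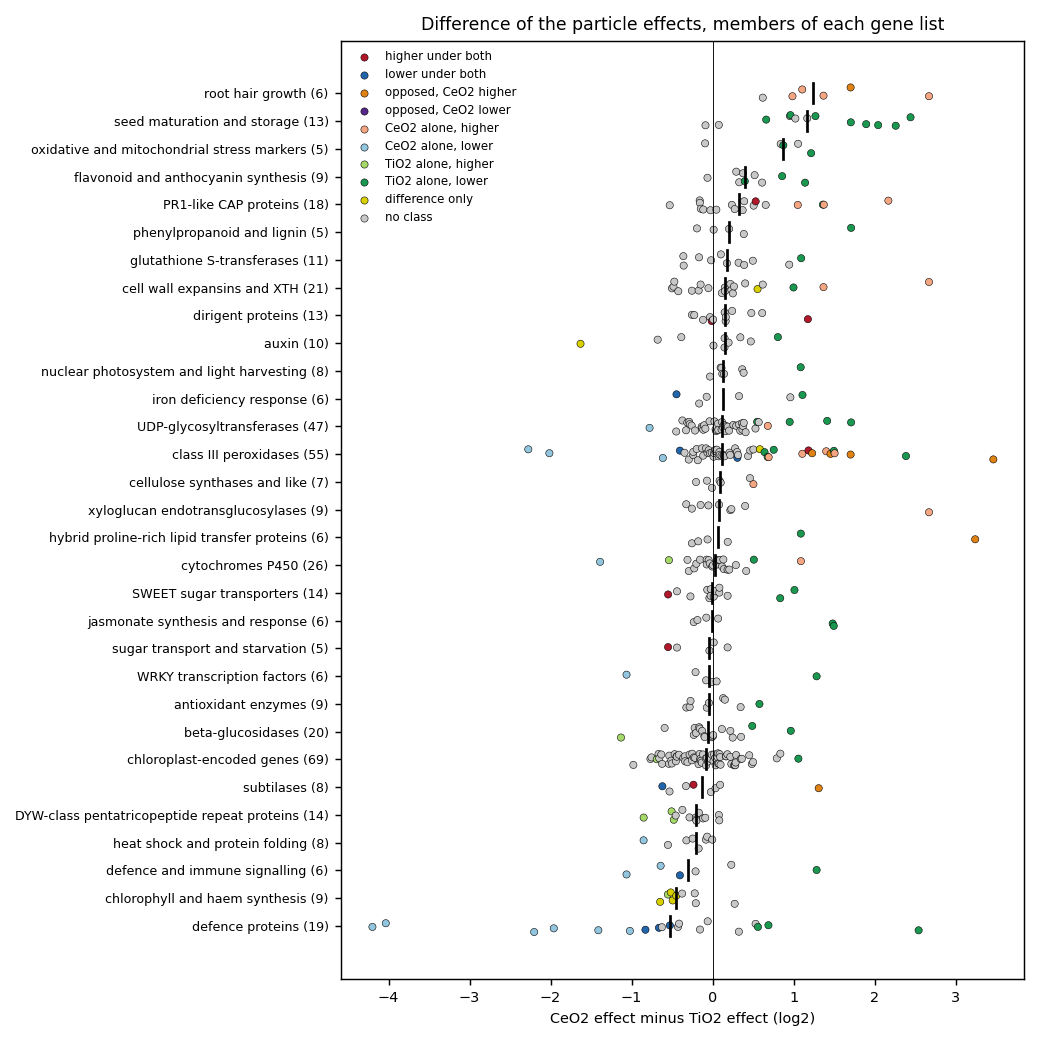
Points give the difference of effects (CeO2 effect minus TiO2 effect, log2) of each measured member of a gene list, coloured by class, with a black bar at the list median and the number of members in brackets. Root hair and seed maturation genes lie to the right, with medians of 1.24 and 1.17, and defence proteins to the left at −0.53, while the class III peroxidases span −2.28 to 3.46.

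The chloroplast-encoded genes and the cytochromes P450 had median differences of −0.082 and 0.025, against −0.033 over all genes. Of 69 chloroplast-encoded genes measured, 66 were in no class or call, against 11809 of 13333 genes. The exceptions were petL of the cytochrome b6f complex, lower under TiO2 by 0.87, rps18 of the ribosome, higher by 0.56, and rps3, higher by 0.61 without a called difference. The differences of petL (adjusted p = 0.042) and rps18 (0.049) were each lost without 9 of the 12 arrays taken 1 at a time, and reached 0.122 and 0.133. The cytochromes P450 held 26 measured members named by symbol, with a median difference of 0.025 and 2 calls in each direction. Of the 12 arrays left out singly, most lost the call of CYP51G2 (−0.54, adjusted p = 0.042), at up to 0.115. It was kept only without KCl replicate 1 or 3, TiO2 replicate 3 or water replicate 1. The 47 measured UDP-glycosyltransferases named by symbol had a higher median difference, 0.12. Among them 9 fell under TiO2 and 1 under CeO2, against 671 and 127 falls of 13333 genes. Under each particle 1 rose, against 540 rises under TiO2 and 147 under CeO2. Their called differences were 5 positive and 1 negative, against 529 and 377 of 13333 genes.

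Calls of 1 particle that could not be assigned included genes with large effects. STZ, a zinc finger transcription factor of stress, changed by −1.42 under TiO2 and −0.37 under CeO2, and the difference of 1.05 did not pass. AT1G47400 (IMA1), a peptide that promotes iron uptake, changed by −0.80 and 0.16, GSTU25, a detoxifying glutathione transferase, by −1.12 and −0.17, and PAP85, a vicilin-like seed protein, by −1.38 and −0.43. For these genes the data do not show whether the particles differed. AT3G13610 (F6'H1), which makes the iron-mobilising coumarin scopoletin, fell under both by 0.53 and 0.98, and its fall under TiO2 missed the threshold without KCl replicate 2, TiO2 replicate 2 or TiO2 replicate 3 (adjusted p = 0.102, 0.0932 and 0.0519).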

How the data were processed

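RNA of 12 samples was hybridised to Affymetrix Arabidopsis arrays, 3 per group. Per the submitters' processing notes, the authors made the deposited log2 values with RMA. Its version, the probe definitions and whether the arrays were normalized together are not given in the sources used here. No value was missing and no filter was set, and 3 arrays per group limit the precision. Each of 13513 probe sets was paired with 1 gene, 503 with several and 8730 with none. Names came from that annotation and a RefSeq gene table. Family names after a locus number, and roles, come from general knowledge.

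A model with 1 mean per group was fitted by limma 3.58.1 under R 4.3.3, with variances moderated by empirical Bayes (8 residual and 7.63 prior degrees of freedom). The two-sided p-values of each contrast were corrected across the 22746 probe sets after Benjamini and Hochberg, and 0.05 was the threshold. Every adjusted p in the text is limma's. The fit was tested on simulated data. Genes were named by a rule: per class the 8 probe sets of 1 gene with no overlap between the groups in the comparisons that place them (passing in both comparisons or in one and in the difference), ranked by the difference of effects or, for both and opposed classes, by the smaller effect, and per list up to 5 members past the threshold in the difference or in both comparisons, by the size of the difference. Members named beyond it, to complete a count or a family, were chosen after their values were seen. Of 36 lists by locus with 937 entries, 269 entries were measured alone on a probe set and 24 lists had 3 or more. A further 23 rules on gene symbol or locus number gave 16 family lists with 3 or more measured members. Rules on symbols miss family members that carry only a locus number. Where a gene had several probe sets, the one with the highest mean over all arrays stood for it. Members and lists were chosen with earlier results of these data known.

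Same-numbered arrays did not deviate together in every pair (correlations 0.114, 0.046 and 0.274 for KCl with TiO2, 0.302, 0.002 and 0.057 for water with CeO2). Alternatives were quantile normalization, centring, a filter on dim probe sets, another variance model, a replicate block, a threshold of 0.01, each particle fitted on its own 6 arrays, and each array left out. A planned count of promoter motifs was not run, since no sequences were used here.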

Additional observations from a re-analysis of the deposited data

Results flagged for a closer look

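The test of the difference of effects called 1833 of 22746 probe sets, 1056 with a more positive effect of CeO2 and 777 with a more negative one. These are the probe sets whose response to CeO2 against water differed from that to TiO2 against KCl. Groups of 3 arrays are too small for a test of single outlying arrays.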

How the results depend on the processing

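All 22746 probe sets had a median difference of −0.0269, and no called difference of a named gene changed sign. Of 130 named genes, 85 kept their class in every alternative but the stricter threshold and the fits on 6 arrays, and 22 gained or lost the call of the difference in some. The stricter threshold lowers counts by construction, and the cause of the other changes below was not tested. At an adjusted p of 0.01, the difference had 972 calls (601 positive, 371 negative), CeO2 346 and TiO2 1203. Both up held 17, both down 24, opposed with CeO2 up 23, opposed with CeO2 down 4, TiO2 alone up 219 and down 422, and the difference alone 123. With each particle fitted on its own 6 arrays TiO2 had 1432 calls, opposed with CeO2 down held 13 and the difference alone 493. Quantile normalization, centring, the filter on dim probe sets, the trended variance and leaving out KCl replicate 3 and CeO2 replicate 3 together, chosen after seeing the data, kept every count within 1.5 times of its value, with opposed with CeO2 up at 47 in the last. With the replicate block the difference had 2148 calls and opposed with CeO2 down 32, and no other count moved by over 1.5 times. AT3G15670 (CeO2 adjusted p = 0.0111) and GH3.3 (0.0306 under TiO2, 0.0284 under CeO2) were then opposed. Leaving out 1 array gave 1434 to 2072 calls of the difference, 31 to 83 probe sets for opposed with CeO2 up, 11 to 25 for opposed with CeO2 down and 156 to 274 for the difference alone. No list median moved by more than its median standard error under another normalization or with the mean of a gene's probe sets. Levels compared across the array sets rest on normalization, and genes near the floor have bounds only.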

Other observations

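Many of the largest responses belong to probe sets that no single gene name could be given. Of the 20 largest effects of either particle, 14 were on such probe sets. The largest of them were CeO2 effects of −4.13, −3.57 and −3.22, each in the class lowered by CeO2 alone, and a TiO2 effect of −3.27 in the class lowered by TiO2 alone. TiO2 effects of 2.69 and 2.64 were on unnamed probe sets higher under both particles. Descriptions by gene function above therefore leave out part of the strongest changes.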
